A study of Saccharomyces cerevisiae with 18 samples.

Results

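Messenger RNA levels of 10 budding yeast (Saccharomyces cerevisiae) genes for pyrimidine synthesis and uracil uptake are described here, out of 7130 genes in the count table. The 10 are URA1, URA2, URA3, URA4, URA5, URA6, URA7, URA8, URA10 and FUR4. The pathway was picked because URA3 has reads almost only in the libraries labelled fes1Δ. The other 9 genes were included by their place in the pathway, with earlier results of these data known. The values of URA3 are therefore given as a description, without a test, and the question asked of the data is whether the other 9 differ along with it.

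The study compared 4 strains that differ at FES1, the gene of a nucleotide exchange factor for Hsp70 chaperones that is spliced into a short and a long form. They are the wild type (WT, strain CAY1015), fes1Δ (CAY1221, a deletion by its label), fes1ΔS (CAY1290) and fes1ΔL (CAY1256), the last pair lacking the S or the L form by their labels. Each gave 3 libraries from independent RNA isolations of log-phase cells in YPD, a rich medium, at 25 °C. Each genotype is represented by a single strain, and alleles other than those at FES1 are not stated in the labels. Another 6 samples, WT and fes1Δ after 30 min at 37 °C, were not analysed here. Total counts ran from 7608550 to 10246711 per library.

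FES1 did not follow its deletion label. It stood at 157, 151 and 168 CPM (counts scaled to a common effective library size) in the libraries labelled fes1Δ, against 165, 158 and 150 CPM in WT. In fes1ΔS it was at 1526, 1399 and 1377 CPM, and in fes1ΔL at 150, 144 and 144 CPM. Against WT, FES1 rose in fes1ΔS by 3.18 on the log2 scale (adjusted p = 1.88e-17). Every direction given below for a strain, fes1Δ above all, is therefore that of the libraries so labelled. STE3, a receptor gene of MATα cells, rose in the libraries labelled fes1Δ, with a mean of 7.36 CPM (SD 3.12, n = 3) against 1.94 CPM (SD 0.176) in WT. The α-factor gene MF(ALPHA)1 did not show such a difference. Its means were 0.695 CPM in fes1Δ and 0.568 CPM in WT, on 4 to 7 and 2 to 9 counts per library. The MATa receptor gene STE2 fell, to 439.5 ± 11.4 CPM from 658 ± 59.7 CPM, and the a-factor gene MFA1 fell by 1.05 on the log2 scale (adjusted p = 6.29e-04). Both also fell in fes1ΔS, STE2 by 0.37 (adjusted p = 0.00105) and MFA1 by 0.88 (adjusted p = 0.00277), while STE3 was not called there (0.19, adjusted p = 0.827). The part of these differences in the results below was not tested.

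Yeast makes UMP, the parent of all its pyrimidine nucleotides, from glutamine, bicarbonate and aspartate. Ura2 carries out the opening steps to carbamoyl aspartate, Ura4 closes the ring, Ura1 oxidises dihydroorotate to orotate, Ura5 or its isozyme Ura10 attaches phosphoribosyl pyrophosphate (PRPP), and Ura3 decarboxylates the product to UMP. Ura6 then phosphorylates UMP, and the CTP synthases Ura7 and Ura8 convert UTP to CTP. Cells can instead import uracil through the permease Fur4. The zinc-cluster activator Ppr1 responds to intermediates ahead of the Ura3 step and raises transcription of URA1, URA3, URA4 and URA10. URA3 is also widely used as a selectable marker, and cells without a working copy need uracil in the medium.

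URA3 was present at 1868, 1866 and 1590 counts in the 3 libraries labelled fes1Δ, or 220, 225 and 214 CPM. In WT it had 0, 1 and 0 counts, in fes1ΔS 3, 1 and 0 counts, and in fes1ΔL 0 counts in each library. The groups are far apart, with no library in between. Taking 3 counts over the group as the floor for fes1ΔL, the mean of 219 CPM in fes1Δ was at least 2094-fold higher. Because its reads coincide with the fes1Δ label, URA3 and whatever else sets that strain apart cannot be told apart as the source of a difference.

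The genes on either side of URA3 had reads in all 12 libraries. GEA2, the next gene on one side, was at 171, 156 and 146 CPM in fes1Δ and at 150, 172 and 148 CPM in WT. TIM9, the next on the other side, was at 28.3, 30.5 and 38.0 CPM against 36.7, 34.7 and 30.8 CPM. YEL023C, beyond GEA2, was at 43.4 ± 2.37 CPM against 39.3 ± 2.60 CPM, with the fes1Δ libraries all above those of WT. The noncoding RNA gene RPR1, beyond TIM9, had at most 15 counts in any library. None of the 3 protein-coding neighbours was called in fes1Δ against WT (adjusted p of 0.932, 0.631 and 0.255 for GEA2, TIM9 and YEL023C).

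Other genes often used as auxotrophic markers showed no such step. LEU2 had 0 counts in all 12 libraries. TRP1 was at 63.2 ± 0.851 CPM in fes1Δ and 63.3 ± 4.41 CPM in WT, LYS2 at 150 ± 16.9 CPM and 149 ± 9.11 CPM, and HIS3 at 26.7 ± 4.11 CPM and 32.1 ± 3.32 CPM, with none of the 3 called in fes1Δ against WT. HIS3 fell in fes1ΔS, by 0.43 (adjusted p = 0.0221). MET17 fell by 0.51 on the log2 scale (adjusted p = 6.14e-04) and ADE2 by 0.40 (adjusted p = 6.14e-04) in fes1Δ, and both also fell in fes1ΔS, by 0.49 and 0.34 (adjusted p = 0.00134 and 0.00342).

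**Figure D1:**
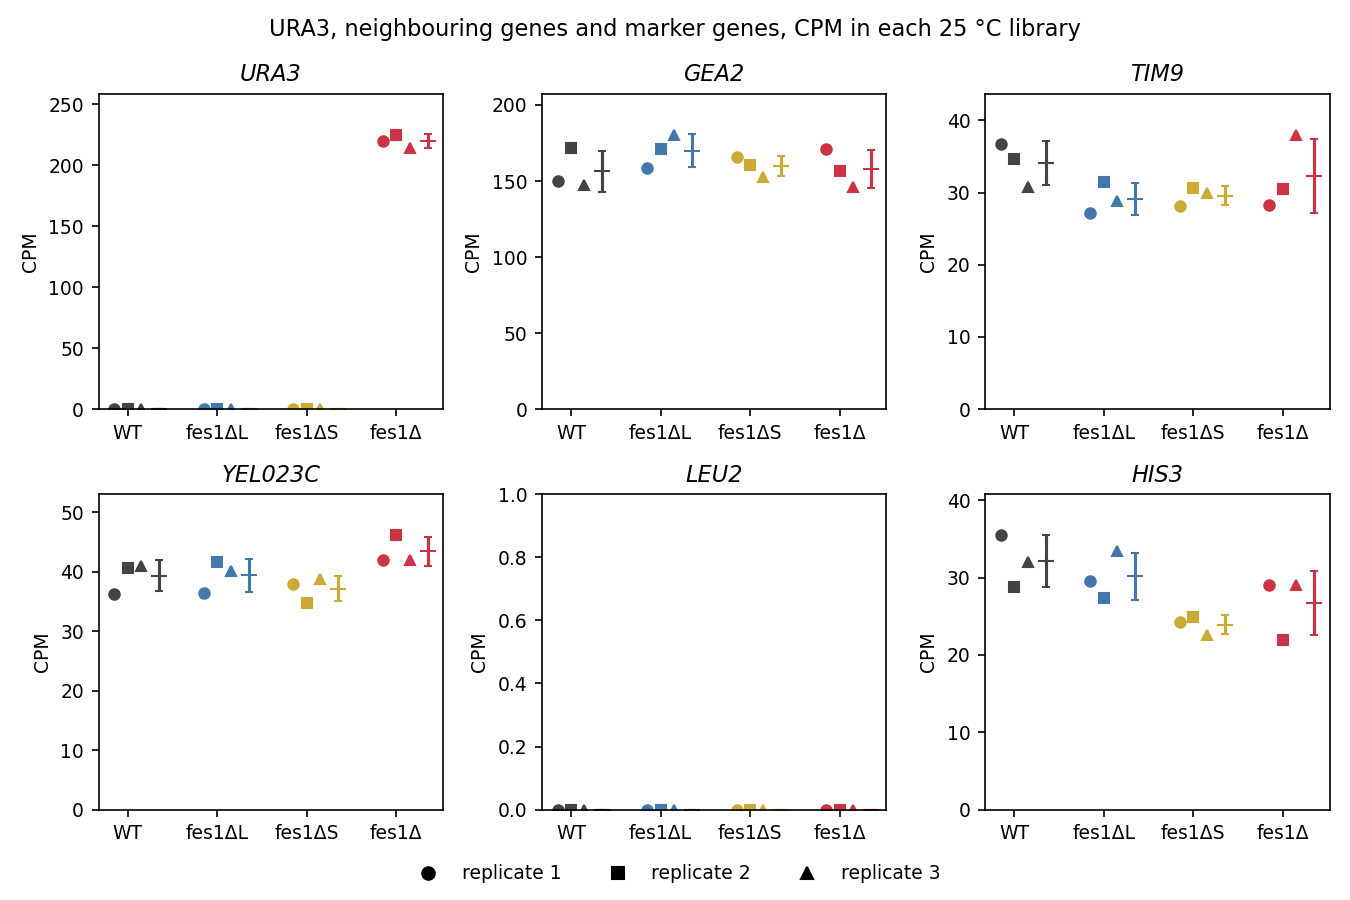
CPM of URA3, its neighbours GEA2, TIM9 and YEL023C, and the marker genes LEU2 and HIS3 in each of the 12 libraries by strain label; symbols are replicates, and the bar to the right of each group is the mean ± SD (n = 3). URA3 is between 214 and 225 CPM in fes1Δ and near 0 elsewhere, and LEU2 is at 0 in every library. The neighbouring genes drawn are read in every library, and none is called against WT in any strain. TIM9 has means of 34.1, 32.3, 29.6 and 29.1 CPM in WT, fes1Δ, fes1ΔS and fes1ΔL.

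A few other genes of the pathway showed small differences between the libraries labelled fes1Δ and WT. In the libraries labelled fes1Δ, URA4 fell by 18.8% against WT, URA10 fell by 27.3%, URA6 fell by 13.7%, and FUR4 rose by 23.0%. URA2, URA5, URA7 and URA8 were not called in any of the 7 comparisons, and neither was URA1. Of the 9 genes other than URA3, 4 were called in fes1Δ against WT (1 higher, 3 lower), where 12.9% of all 5719 tested genes were called, 5.72% higher and 7.15% lower. Fitted to the 6 libraries of these strains alone, only URA4 was called (adjusted p of URA10, URA6 and FUR4 of 0.093, 0.0627 and 0.0501). The libraries did not overlap for 5 of the 9, the 4 called and URA8, as for 25.1% of all tested genes. All 9 passed the expression filter. The median log2 fold change of the 9 was -0.10, and that of all tested genes was 0.00.

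URA4 and URA10 were also called lower against fes1ΔL, and FUR4 was also called higher against fes1ΔS. URA6 was lower in fes1ΔS as well, and the difference between fes1Δ and fes1ΔS was not called for it. Against the mean of the 3 other strains, where URA3 had at most 3 counts in a library, URA4 and URA10 fell and FUR4 rose, 3 of 9 genes, where 10.8% of all genes were called (5.23% higher, 5.60% lower). In that comparison the 3 fes1Δ libraries lay beyond all 9 others for these same 3 genes, as they did for 6.84% of all tested genes. The comparisons share libraries, so their calls are not independent of each other.

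**Figure D2:**
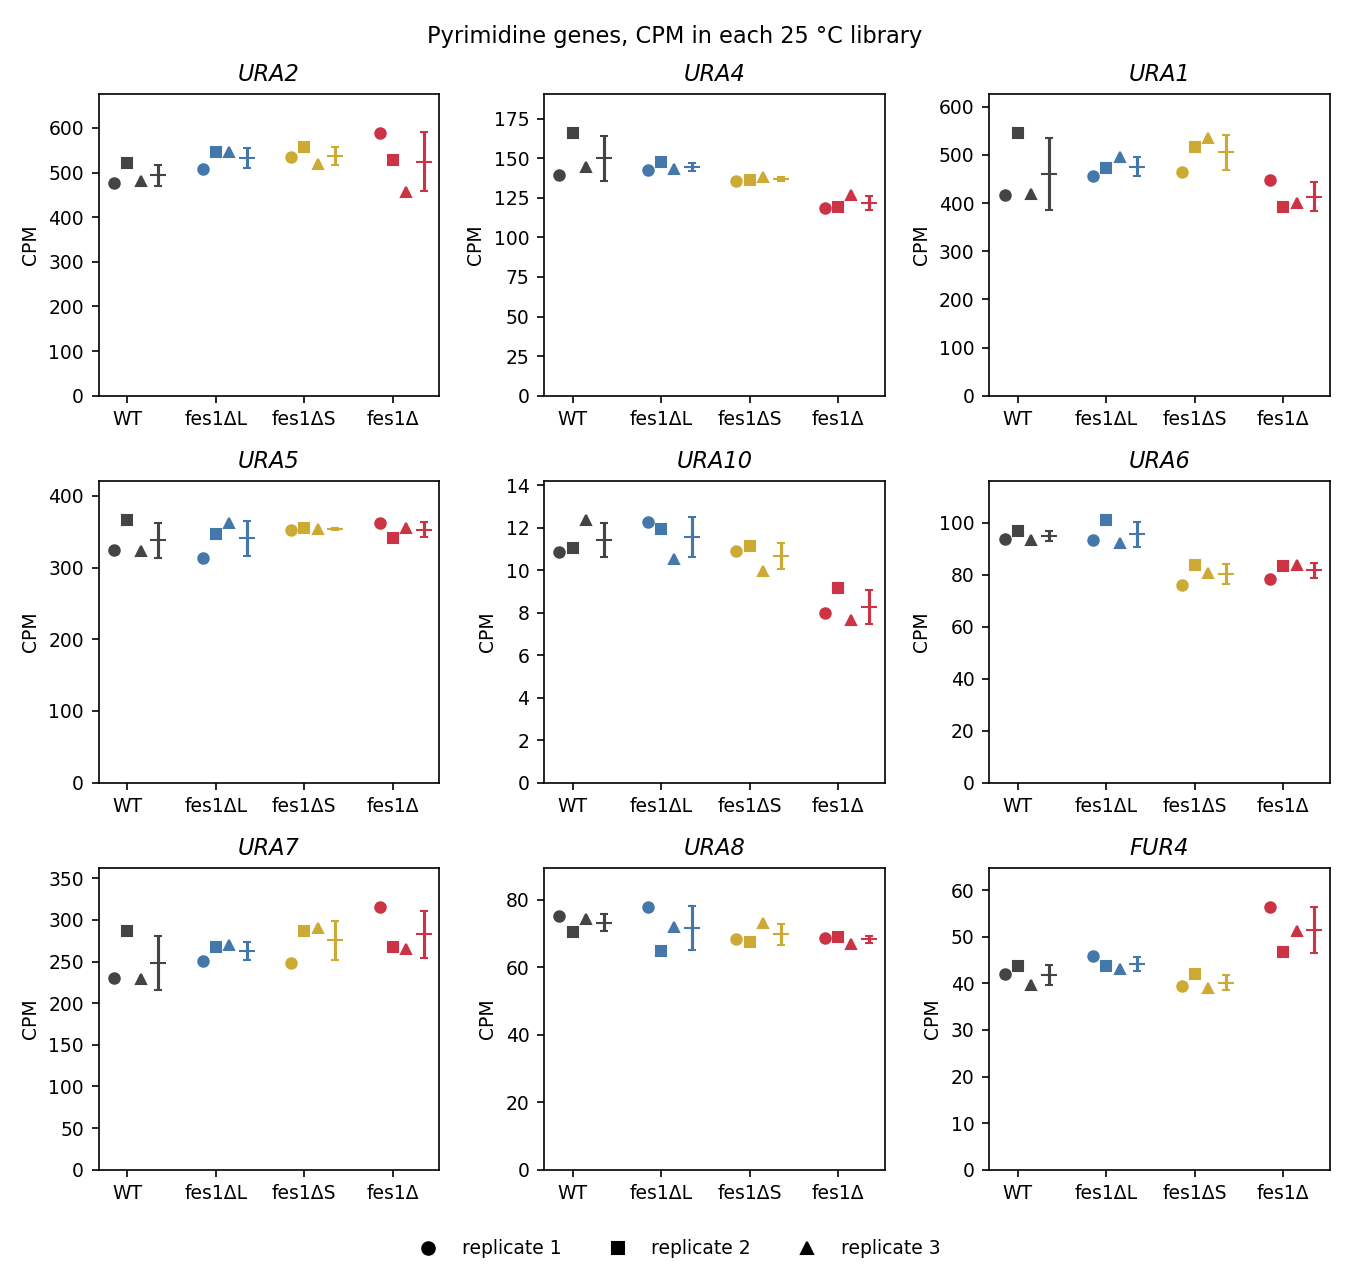
CPM of the 9 genes other than URA3 in each of the 12 libraries, by strain label; symbols are replicates, and the bar beside each group is the mean ± SD (n = 3). The fes1Δ libraries are lowest of all for URA4 and URA10 and highest of all for FUR4, and for URA6 the fes1Δ and fes1ΔS libraries lie below the rest.

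URA4, the dihydroorotase gene, was at 119, 119 and 127 CPM in fes1Δ and at 139, 166 and 144 CPM in WT. It was at 135, 137 and 138 CPM in fes1ΔS and at 143, 148 and 143 CPM in fes1ΔL. All 3 fes1Δ libraries were below the other 9, and fes1ΔS lay between fes1Δ and the remaining strains. Against WT the log2 fold change was -0.30 (SE 0.06, adjusted p = 0.00301), and this call was kept under every alternative fit run for it and without any single library. Against fes1ΔL it was -0.25 (adjusted p = 0.0145), not called without fes1Δ replicate 2 (adjusted p = 0.0635) or fes1ΔL replicate 2 (0.0657). Against fes1ΔS it was -0.17 (95% interval -0.30 to -0.04, adjusted p = 0.225). In fes1ΔS against WT it was -0.13 (95% interval -0.26 to -0.00, adjusted p = 0.233).

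URA1, the dihydroorotate dehydrogenase gene, is another Ppr1 target. It was at 447, 392 and 401 CPM in fes1Δ, 416, 546 and 419 CPM in WT, 465, 516 and 535 CPM in fes1ΔS and 457, 473 and 497 CPM in fes1ΔL. The fes1Δ libraries were below all those of fes1ΔS and fes1ΔL but overlapped WT, whose second replicate was the highest of all. URA1 was not called in any comparison. Its log2 fold change was -0.16 against WT (95% interval -0.35 to 0.04, adjusted p = 0.301), and -0.02 without WT replicate 2 (adjusted p = 0.9). It was -0.29 against fes1ΔS (95% interval -0.48 to -0.10, adjusted p = 0.13). Against the mean of the 3 other strains it was -0.22 (adjusted p = 0.0817), and it was called there without WT replicate 1 (-0.23, adjusted p = 0.0423). In fes1ΔS against WT it was 0.13 (adjusted p = 0.428), and it was called without WT replicate 2 (0.27, adjusted p = 0.0286).

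URA10, the gene of the minor orotate phosphoribosyltransferase, had few reads, between 57 and 114 counts per library. It was at 8.01, 9.16 and 7.66 CPM in fes1Δ, 10.9, 11.04 and 12.4 CPM in WT, 10.9, 11.1 and 9.99 CPM in fes1ΔS and 12.3, 11.96 and 10.5 CPM in fes1ΔL. No fes1Δ library reached the lowest of the other 9. The log2 fold change was -0.46 against WT (SE 0.13, adjusted p = 0.0277), -0.48 against fes1ΔL (adjusted p = 0.0246) and -0.36 against fes1ΔS (95% interval -0.65 to -0.08, adjusted p = 0.22). The call against WT was lost without WT replicate 1 or 3 or fes1Δ replicate 1 or 3 (adjusted p from 0.0544 to 0.107), and DESeq2 did not make it (adjusted p = 0.0734). The call against fes1ΔL was lost without fes1Δ replicate 1 or 3 or fes1ΔL replicate 1 or 2 (0.0662, 0.0683, 0.0936 and 0.0906) and with DESeq2 (0.0644). Against the mean of the other strains it fell by 0.44 (adjusted p = 0.0154), not called without fes1Δ replicate 1 or 3 (0.0674 and 0.0586).

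URA5, the gene of the major isozyme of the same step, was not called. It was at 362, 341 and 355 CPM in fes1Δ, 324, 366 and 323 CPM in WT, 352, 355 and 354 CPM in fes1ΔS and 313, 347 and 362 CPM in fes1ΔL. The 4 groups overlapped, and the log2 fold change of fes1Δ against WT was 0.06 (95% interval -0.07 to 0.20, adjusted p = 0.586). How reads that match both isozyme genes were counted is not stated in the labels.

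URA2, whose bifunctional product opens the pathway and is inhibited by UTP, overlapped between all 4 groups. It was at 589, 528 and 457 CPM in fes1Δ, the widest spread of any strain for this gene, and at 478, 521 and 482 CPM in WT. The libraries of fes1ΔS were at 536, 558 and 518 CPM and those of fes1ΔL at 508, 545 and 546 CPM. Its log2 fold change in fes1Δ against WT was 0.09 (95% interval -0.07 to 0.24, adjusted p = 0.49).

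URA6, the uridylate kinase gene, was at 78.4, 83.3 and 83.5 CPM in fes1Δ and 76.1, 83.6 and 80.6 CPM in fes1ΔS. It was at 93.8, 96.9 and 93.3 CPM in WT and 93.5, 101 and 92.1 CPM in fes1ΔL. The first pair of strains overlapped each other and lay wholly below the second pair. URA6 fell by 0.21 in fes1Δ and by 0.24 in fes1ΔS against WT on the log2 scale (SE 0.06 each, adjusted p = 0.0193 and 0.0122), and fell by 0.22 and 0.25 against fes1ΔL (adjusted p = 0.0155 and 0.00956). Between fes1Δ and fes1ΔS the difference was 0.03 (95% interval -0.09 to 0.15, adjusted p = 0.905). Against WT, leaving out WT replicate 1, WT replicate 2 or fes1Δ replicate 1 ended the fes1Δ call (adjusted p = 0.0531, 0.0526 and 0.071), and leaving out fes1ΔS replicate 1 ended the fes1ΔS call (0.0909). Against fes1ΔL, the fes1Δ call was lost without fes1Δ replicate 1 or fes1ΔL replicate 2 (0.053 and 0.11), and the fes1ΔS call without fes1ΔS replicate 1 or fes1ΔL replicate 2 (0.083 and 0.0772).

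Neither CTP synthase gene was called. URA7 was at 316, 268 and 265 CPM in fes1Δ, 230, 286 and 230 CPM in WT, 249, 287 and 291 CPM in fes1ΔS and 251, 268 and 270 CPM in fes1ΔL. All groups overlapped, and the log2 fold change of fes1Δ against WT was 0.19 (95% interval -0.00 to 0.37, adjusted p = 0.198). Without WT replicate 2, the high library, URA7 was called higher (0.30, adjusted p = 0.0177). On the authors' deposited FPKM values, limma on log2(FPKM + 1) gave URA7 a smaller difference of 0.08 (adjusted p = 0.646). URA8 was at 68.8, 68.9 and 66.9 CPM in fes1Δ and 75.0, 70.3 and 74.2 CPM in WT, with a log2 fold change of -0.10 (95% interval -0.24 to 0.04, adjusted p = 0.361). The fes1Δ libraries were all below those of WT but inside the range of fes1ΔL, which ran from 64.9 to 77.8 CPM, while fes1ΔS ran from 67.5 to 73.2 CPM.

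FUR4, the uracil permease gene, was the only member called higher. It was at 56.4, 46.6 and 51.3 CPM in fes1Δ, 42.0, 43.8 and 39.6 CPM in WT, 39.4, 41.9 and 39.1 CPM in fes1ΔS and 45.8, 43.6 and 43.1 CPM in fes1ΔL. Every fes1Δ library was above the other 9, although replicate 2 stood only slightly above fes1ΔL replicate 1. The log2 fold change was 0.30 against WT (SE 0.08, adjusted p = 0.0116), 0.36 against fes1ΔS (SE 0.08, adjusted p = 0.0121) and 0.29 against the mean of the 3 other strains (SE 0.06, adjusted p = 0.00316). Against fes1ΔL it was 0.22 (95% interval 0.07 to 0.38, adjusted p = 0.0676), and it was called there without fes1Δ replicate 2 (0.29, adjusted p = 0.0256).

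Leaving out WT replicate 3 or fes1Δ replicate 1 ended the FUR4 call against WT (adjusted p of 0.0566 and 0.0694). That against fes1ΔS was lost without fes1Δ replicate 1, fes1ΔS replicate 1 or fes1ΔS replicate 3 (0.0599, 0.0687 and 0.0638). The call against the mean of the other strains was kept without any single library. On the authors' deposited FPKM values FUR4 was at 25.7, 21.7 and 23.8 in fes1Δ and 19.6, 21.1 and 18.9 in WT, and limma on log2(FPKM + 1) gave 0.24 (adjusted p = 0.0347). Against fes1ΔS the same test gave 0.36 (adjusted p = 0.0253), and against fes1ΔL 0.14 (adjusted p = 0.212). On this scale fes1Δ replicate 2 was below fes1ΔL replicate 2, at 22.0 FPKM, so those groups overlapped.

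**Figure D3:**
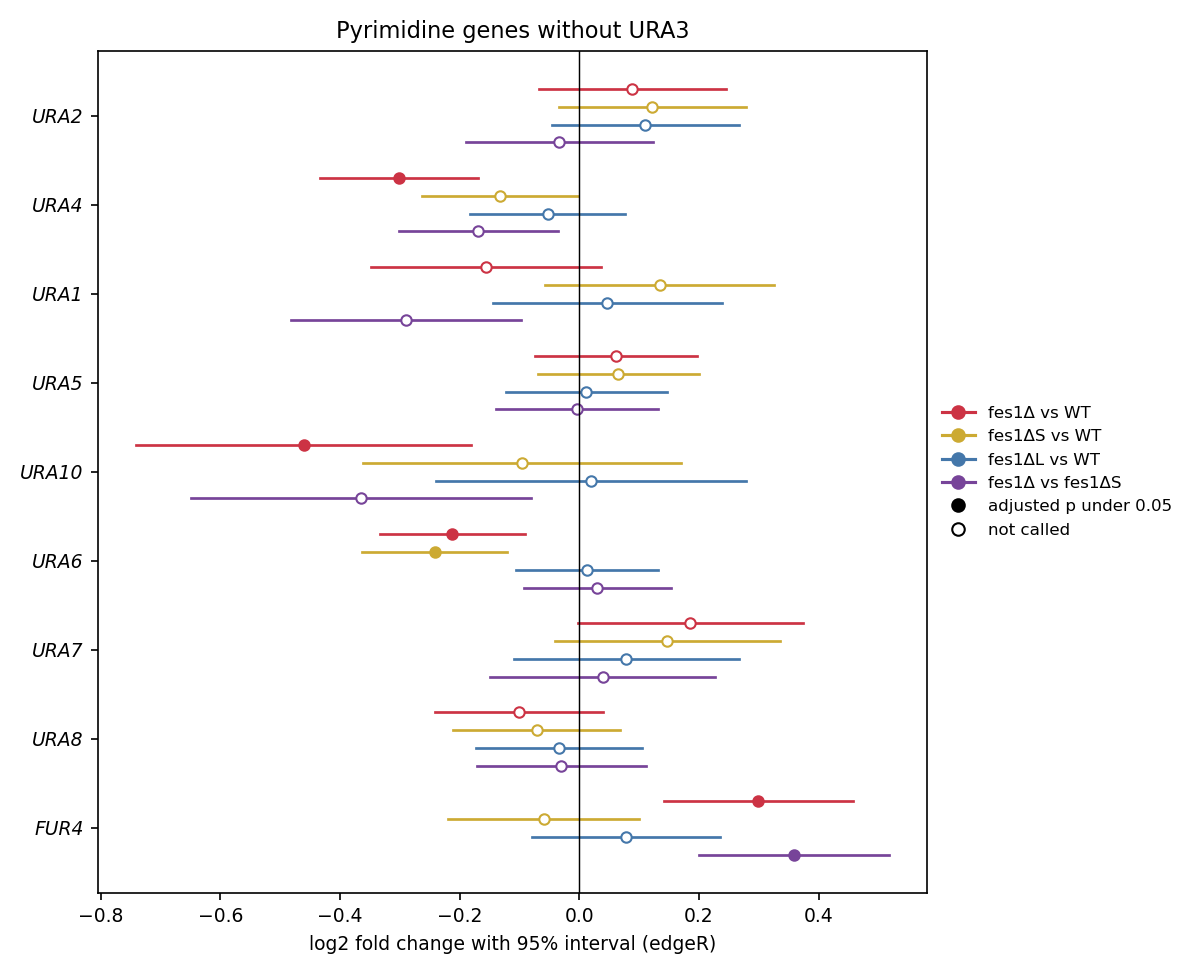
Log2 fold change with its 95% interval (edgeR) of the 9 genes other than URA3 in 4 comparisons (fes1Δ, fes1ΔS and fes1ΔL against WT, and fes1Δ against fes1ΔS); filled points have an adjusted p under 0.05. FUR4 is the only gene filled to the right of 0, URA4 and URA10 are filled for fes1Δ against WT and open in the other comparisons drawn, and URA6 is filled at -0.21 and -0.24 for fes1Δ and fes1ΔS against WT.

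In fes1ΔS against WT, URA6 alone of the 9 was called, where 6.66% of all genes were called (3.22% higher, 3.44% lower). The libraries did not overlap for 2 of the 9, URA6 and URA4, as for 28.1% of all genes. In fes1Δ against fes1ΔS, FUR4 alone was called, against 2.47% of all genes (1.22% higher, 1.24% lower). The libraries did not overlap for 4 of the 9, FUR4, URA4, URA1 and URA10, as for 17% of all genes. In fes1Δ against fes1ΔL, 3 of 9 were called lower (URA4, URA10 and URA6), against 9.51% of all genes in either direction (4.41% higher, 5.11% lower). The libraries did not overlap for 5 of the 9, as for 24.7% of all genes. In fes1ΔS against fes1ΔL, URA6 alone was called, against 4.83% of all genes (2.76% higher, 2.06% lower), and the libraries did not overlap for 3 of the 9, as for 25.6% of all genes. In fes1ΔL against WT, edgeR called 0 of the 9, DESeq2 also 0, and 0 had an unadjusted p under 0.05, where 0.0699% of all genes were called (0.035% higher, 0.035% lower). The libraries overlapped for all 9, while 11.2% of all genes did not overlap. In that last comparison all 9 log2 fold changes lay between -0.05 and 0.11.

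Grouped by Ppr1, a grouping made after the values were seen, the targets other than URA3 had log2 fold changes in fes1Δ against WT of -0.30 (URA4), -0.46 (URA10) and -0.16 (URA1, not called, and -0.02 without WT replicate 2). In fes1ΔS against WT the 3 values were -0.13, -0.10 and 0.13, with none called, and in fes1ΔL against WT -0.05, 0.02 and 0.05, with none called. The direct contrast of fes1Δ with fes1ΔS called none of the 3, with log2 fold changes of -0.17 (URA4), -0.36 (URA10) and -0.29 (URA1). For each, the fes1Δ libraries were all below those of fes1ΔS, where libraries did not overlap for 17% of all genes. The 95% intervals, not adjusted for the number of genes tested, lay below 0. A difference between these 2 strains was therefore not shown for them at the threshold used, and neither was its absence. Among the genes outside this group, URA6 (-0.21, called) and URA8 (-0.10, not called) were also lower in fes1Δ than in WT. FUR4 (0.30, called) was higher, as were URA5 (0.06), URA2 (0.09) and URA7 (0.19), which were not called. The gene of the activator itself, PPR1, was at 47.8, 39.3 and 41.8 CPM in fes1Δ and 36.2, 44.5 and 35.7 CPM in WT (log2 fold change 0.15, 95% interval -0.05 to 0.35, adjusted p = 0.346).

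Only URA3, URA7 and FUR4 have a single deposited FPKM value per library, so levels were compared between genes, per length, for these 3 alone. In the libraries labelled fes1Δ, URA3 was at 249, 275 and 251 FPKM and URA7 at 199.5, 181 and 166 FPKM, so URA3 was above URA7 in each of the 3. FUR4, between 21.7 and 25.7 FPKM there, was the lowest of the 3 genes in each fes1Δ library. In the 9 other libraries URA3 was at most 0.351 FPKM.

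The pooled within-strain coefficient of variation ran from 4.00% for URA6 to 9.74% for URA1, with URA7 next at 9.48%. WT replicate 2 was the highest of the 3 WT libraries for 7 of the 9 genes, by 0.26 above the WT mean of log2 CPM for URA1 and by 0.21 for URA7. After the mean of each strain was subtracted, URA1 and URA7 varied together over the 12 libraries (r = 0.96). So did URA1 and URA5 (r = 0.79), URA5 and URA7 (r = 0.72) and URA1 and URA4 (r = 0.70). URA5 and URA10 had r = -0.58 and URA5 and URA8 r = -0.60. These pairs were chosen after all 36 were seen, and genes of a library share its depth and scaling.

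**Figure D4:**
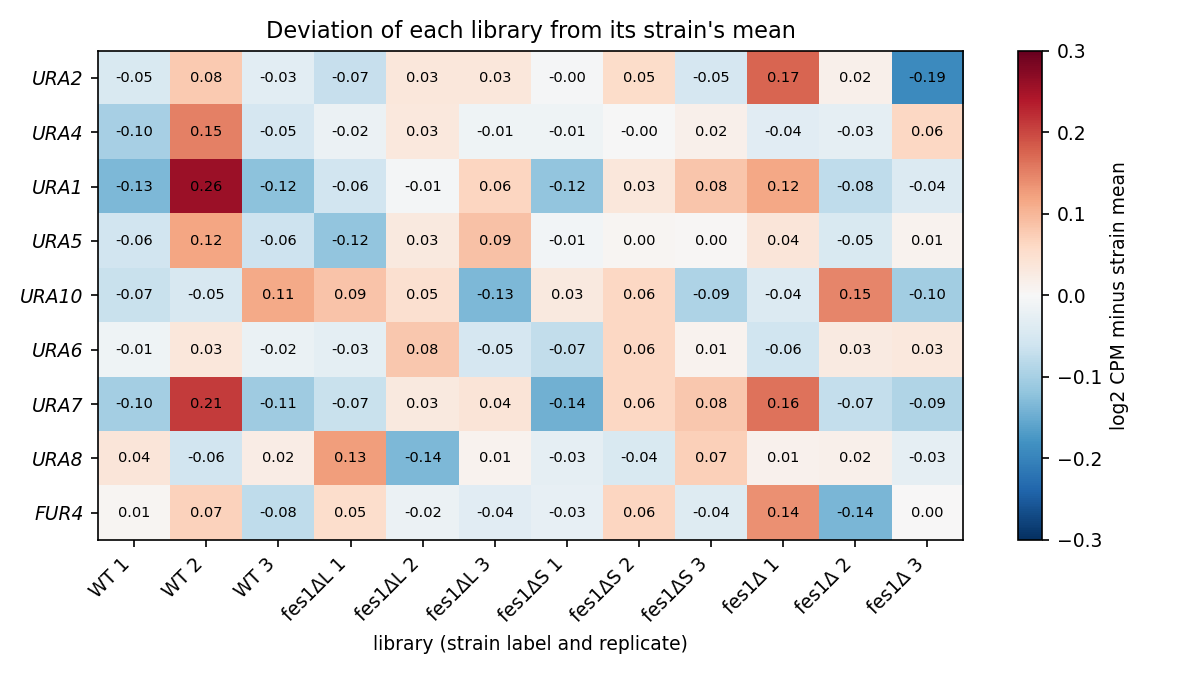
Log2 CPM of each of the 9 genes in each library minus the mean of its strain; colour and printed number show the deviation. URA1 and URA7 are highest in WT replicate 2, at 0.26 and 0.21, and also high in fes1Δ replicate 1, at 0.12 and 0.16.

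Of 23 further genes around pyrimidine metabolism, for salvage, uptake, nucleotide conversion, PRPP synthesis and the arginine branch of carbamoyl phosphate, all passed the filter. In fes1Δ against WT 2 fell and 0 rose, beside the 7.15% lower and 5.72% higher of all tested genes. They were URH1, the uridine nucleosidase gene (52.4, 53.3 and 51.4 CPM against 60.5, 66.8 and 59.5 CPM, log2 -0.25, adjusted p = 0.0255), and YNK1, the nucleoside diphosphate kinase gene (112, 131 and 147 CPM against 168, 153 and 155 CPM, log2 -0.29, adjusted p = 0.0256). The fes1Δ and WT libraries did not overlap for 4 of the 23 (URH1, YNK1, DCD1 and CDC21), as for 25.1% of all tested genes. The URH1 call was lost without WT replicate 2, fes1Δ replicate 1 or fes1Δ replicate 2, and the YNK1 call without WT replicate 1, WT replicate 3, fes1Δ replicate 1 or fes1Δ replicate 2. The median log2 fold change of the list was -0.02, against 0.00 for all tested genes.

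YNK1 was also called lower in fes1ΔS against WT (134, 128 and 129 CPM, log2 -0.28, adjusted p = 0.0455), the only one of the 23, and without any 1 of the 6 libraries of that comparison it was not. URH1 was called lower in fes1Δ against fes1ΔL (log2 -0.29, adjusted p = 0.0124) and against the mean of the 3 other strains (log2 -0.22, adjusted p = 0.0227), the only one of the 23 in each. The call against fes1ΔL was lost without fes1ΔL replicate 2 or 3, and that against the mean without any 1 of the 3 fes1Δ libraries. Of all tested genes, 6.66% were called in fes1ΔS against WT, 9.51% in fes1Δ against fes1ΔL and 10.8% against the mean. In fes1ΔL against WT, fes1Δ against fes1ΔS and fes1ΔS against fes1ΔL, edgeR called 0 of the 23, DESeq2 also 0, and 1, 2 and 5 had an unadjusted p under 0.05. Of all 5719 tested genes, 0.0699%, 2.47% and 4.83% were called by edgeR in these comparisons, and 232, 723 and 886 had an unadjusted p under 0.05. The medians in these 3 comparisons were 0.02, 0.02 and -0.07.

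The salvage genes FUR1 (uracil phosphoribosyltransferase) and URK1 (uridine kinase) were not called in fes1Δ against WT. FUR1 was at 195 ± 8.76 CPM against 204 ± 12.8 CPM, and URK1 at 60.3 ± 0.875 CPM against 60.0 ± 11.4 CPM (SD, n = 3). The uridine permease gene FUI1 was at 74.4 ± 11.1 CPM against 84.1 ± 14.1 CPM (log2 -0.17, adjusted p = 0.396), and its groups overlapped. Values for DAL4, another related permease gene, rest on 3 to 17 counts per library.

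CPA1, a gene of arginine synthesis, varied widely between replicates in WT and fes1ΔL. It was at 249, 125 and 148 CPM in WT, 235, 152 and 138 CPM in fes1ΔL, 162, 171 and 163 CPM in fes1ΔS and 238, 273 and 226 CPM in fes1Δ. Replicate 1 stood apart in WT and fes1ΔL, near the fes1Δ level, so that fes1Δ was wholly above fes1ΔS but overlapped WT and fes1ΔL. It was not called in fes1Δ against WT (log2 0.50, 95% interval -0.14 to 1.13, adjusted p = 0.305). Against the mean of the other strains it was not called with all 12 libraries. It was called higher in fes1Δ there without WT replicate 1, the high WT library.

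**Figure D5:**
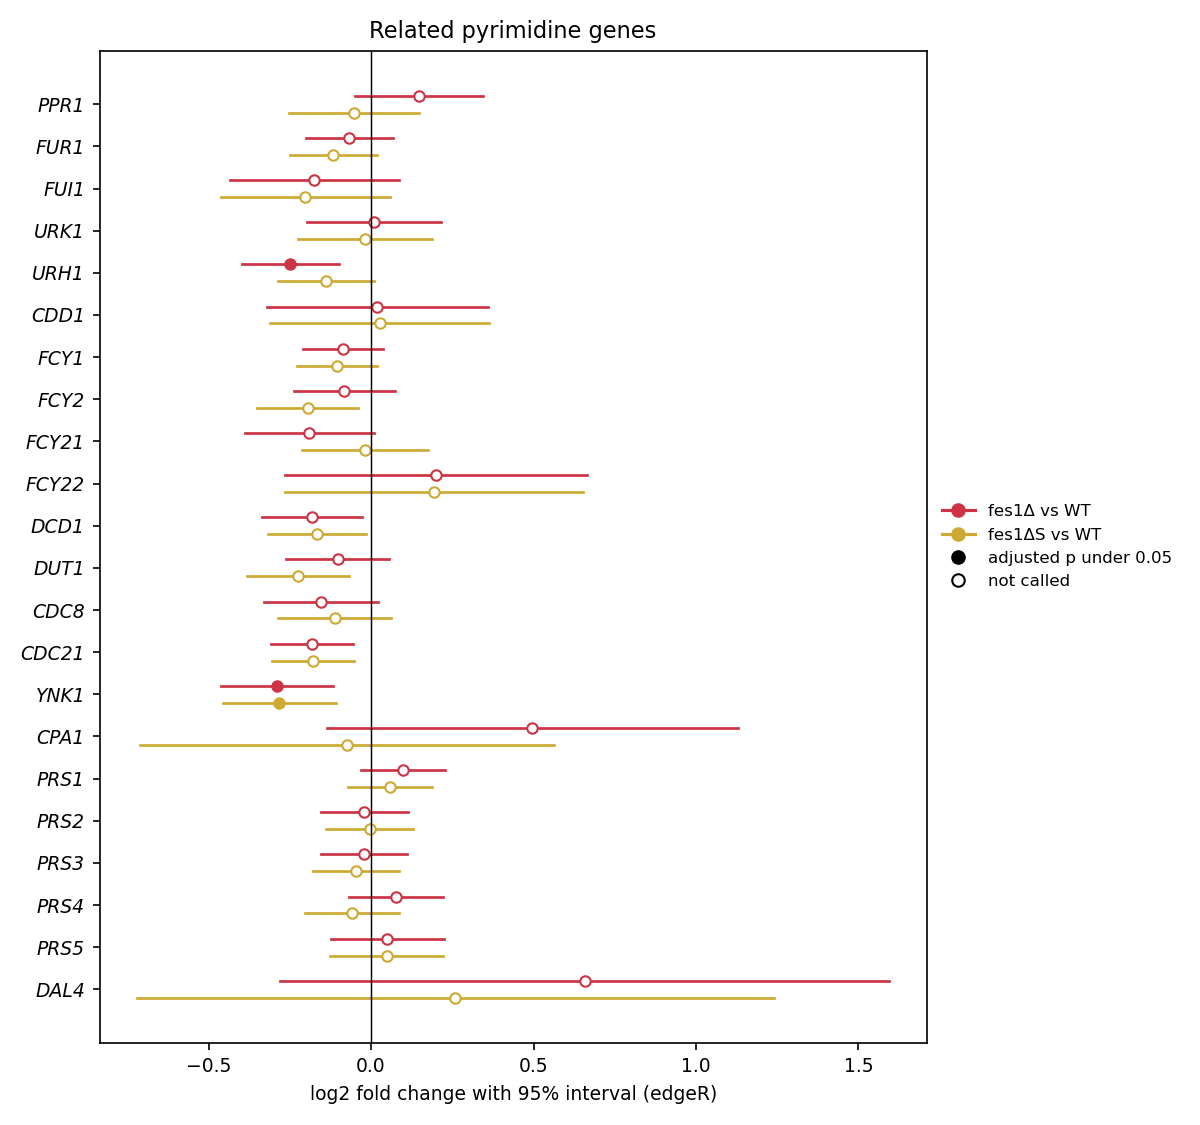
Log2 fold change with its 95% interval (edgeR) of related genes in fes1Δ and fes1ΔS against WT; filled points have an adjusted p under 0.05. URH1 (-0.25) and YNK1 (-0.29) are filled for fes1Δ, YNK1 (-0.28) for fes1ΔS, and the intervals of CPA1, FCY22 and DAL4 are wide.

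For each of the 9 genes other than URA3, the tested genes with the most similar profile were listed by Pearson's r of log2 CPM over the 12 libraries, which share library scaling. For URA4 they were the purine synthesis genes ADE1 (0.92) and ADE17 (0.92) and the pheromone protease gene BAR1 (0.91). For URA10 they were ARN2 (0.95), a siderophore transporter gene, YPR172W (0.93) and BIG1 (0.91). For FUR4 they were the S-methylmethionine permease gene MMP1, TOS6 and the cell cycle regulator gene FKH2 (0.90 each).

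For URA6 the closest were CIN2 (0.95), the telomerase RNA gene TLC1 (0.94) and HO (0.93), all lower in fes1Δ and fes1ΔS than in WT by their means. TLC1 was at 114, 117 and 172 CPM in fes1Δ, fes1ΔS and WT. The closest to URA7 were RLI1 (0.98) and the ribosome biogenesis genes NOP12 and NOC2 (0.96 each). The closest to URA2 were NET1 (0.97), NCL1 (0.96) and SPT6 (0.95), and to URA5 RIO2 (0.91), RPL7A (0.88) and RPS8B (0.87). For URA1 and URA8 the highest values were 0.91 (VMA6) and 0.85 (HPA3). None of the 10 genes was among the 3 closest to another.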

How the data were processed

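Poly(A)-selected, strand-marked libraries were sequenced, per the labels' protocols. The authors deposited whole-number counts per gene without normalization for 7130 genes in 12 libraries kept at 25 °C, and FPKM values for the same libraries. The submitters' processing notes name TopHat2 2.0.4, HTSeq 0.6.1, Cufflinks 2.1.1, bcl2fastq 1.8.3, CASAVA, Picard 1.29 and the build sacCer2, without roles. Counting options, strand included, are not stated. In 2 further tables, 12 columns match no sample's label and were not used, so the planned heat-shock comparison was not made. In the FPKM table, 3501 genes hold 24 values for 12 column names and were left out, which left 3 of the 10 genes. The reference at hand is another build (R64), used only for which genes lie beside URA3.

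Counts of all 12 libraries were fitted with edgeR 4.0.16 in R 4.3.3 (robust quasi-likelihood F test, TMM size factors, default expression filter, strain as the only term), with Benjamini-Hochberg adjustment over the 5719 genes tested. An adjusted p under 0.05 is a call, and "rose" and "fell" refer to calls. In all, 7 comparisons were made. CPM were computed with TMM-scaled library sizes, and 3 counts equal 0.302 to 0.403 CPM. The SE came from the F statistic. Alternatives were RLE size factors, no filter, DESeq2 1.42.0, only the groups compared, a replicate block, each library left out, and limma 3.58.1 on log2 FPKM with pseudocounts of 1 and 0.1. The scripts were tested on simulated data. No pair of replicates agreed within sampling noise (chi-square over its degrees of freedom 2.60 to 14.7). The p-values measure the spread between RNA isolations. The members and lists were chosen with earlier results of these data known. The text names the members, marker genes, genes next to URA3, and the 3 most similar genes of each member but URA3. It also names the 23 related genes where called, few or described by role. PPR1, MFA1, STE2, STE3, MF(ALPHA)1, FUR1, URK1, FUI1, DAL4 and CPA1 were added after their values were seen. Among the related genes, 1 is counted but not reported here.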

Additional observations from a re-analysis of the deposited data

How the results depend on the processing

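RLE size factors and no expression filter gave the same calls for the members' log2 fold changes, and no called value changed sign under any alternative. Of 780 recomputed log2 fold changes of members, 32 lost their call, 4 gained one and 34 that were not called changed sign. With only the groups compared in the fit, 1 member was called in fes1Δ against WT and 1 in fes1Δ against fes1ΔL (URA4 in each), and of the related genes 0 were called in fes1Δ against WT, 2 in fes1ΔS against WT, 2 in fes1Δ against fes1ΔS and 3 in fes1ΔS against fes1ΔL. With a replicate block, 4 members were called in fes1Δ against WT, as without it, while 0 related genes were called in fes1ΔS against WT and 2 in fes1Δ against the mean of the others. The block changed no call of a member. The replicate numbers did not pair the libraries throughout (correlations of same-numbered deviations from -0.189 to 0.289), and 5 of 12 libraries were closest to their own number. Only between WT and fes1ΔL were all these correlations positive (0.289, 0.213 and 0.096), and a pairing of those strains alone was not tested.

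Leaving out 1 library at a time, the count of members called ranged from 1 to 4 in fes1Δ against WT, 0 to 2 in fes1ΔS against WT, 0 to 1 in fes1Δ against fes1ΔS, 0 to 3 in fes1Δ against fes1ΔL, 0 to 1 in fes1ΔS against fes1ΔL and 2 to 4 in fes1Δ against the mean of the others. For related genes it ranged from 0 to 3 in fes1Δ against WT, was 0 each time in fes1ΔS against WT, and ranged from 0 to 2 in fes1Δ against fes1ΔL and 0 to 3 in fes1Δ against the mean of the others. DESeq2 called 3 members in fes1Δ against WT. The FPKM alternatives gave values for URA7 and FUR4 only, so no count of members was made from them. The fit of only the groups compared is the same as the reported one for the comparison with the mean of the others, and the heat-shock alternatives were not run. Among the members other than URA3, counting error limits URA10 most (57 to 114 counts per library).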
